A study of Mus musculus with 6 samples.

Results

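The Hox genes of the 4 mammalian clusters were examined in dorsal root ganglia, which hold the cell bodies of sensory neurons next to the spinal cord. Members were taken by name: every row of the deposited table whose mouse Ensembl identifier maps to a symbol made of Hoxa, Hoxb, Hoxc or Hoxd and a paralog number. This gave 39 of 54532 gene rows, with 11 members in the A cluster, 10 in B, 9 in C and 9 in D. Bulk RNA-seq had been done on C57BL/6 mice at 8 weeks of age. The conditional knockout (Hdac2 cKO, 3 libraries) carried floxed Hdac2 (the labels write hdac2-flop++) and Cre recombinase driven by the Advillin promoter, which is active in sensory neurons. The controls (WT, 3 libraries) were littermates with the same floxed Hdac2 and no Cre, so that the groups also differed by Cre itself, and a group with Cre alone was not among the samples. Which spinal levels were dissected, and whether a library held ganglia of 1 or of several mice, is stated in none of the sources used here. The p-values therefore cover only the spread among these libraries, which may be technical. Lists of values below run in the order of replicates 1, 2 and 3.

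Hox genes encode homeodomain transcription factors. In the embryo they are switched on in the order in which they lie along the chromosome, genes of low paralog number towards the head and genes of high paralog number towards the tail, and they give neurons of the spinal cord and its ganglia their position and targets. Many stay on in adult tissue, held open by Trithorax proteins or shut by Polycomb proteins. HDAC2 is a histone deacetylase, an enzyme that takes acetyl groups off histones and acts in repressor complexes. The comparison addresses whether the level of these genes differs when Hdac2 is deleted in sensory neurons.

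Reads assigned to genes ranged from 18943595 (WT 2) to 42070531 (Hdac2 cKO 3) per library, and genes with a read from 24458 to 29181. Values below are normalised read counts, that is, reads divided by 1 size factor per library. Y-linked reads summed to 353, 4046 and 8009 in the WT libraries and to 591, 4314 and 600 in the knockout libraries. Xist, which marks female cells, stood at 11489, 11.9 and 192.2 against 10623, 1.97 and 7474. By these reads the groups were not balanced for sex, and the 2 libraries numbered 3 differed. A fit with a sex term is among the alternatives. Hdac2 itself read 2816, 1715 and 3498 in the WT libraries and 499.1, 371.5 and 535.0 in the knockout libraries, lower in every knockout library (log2 fold change -2.47, SE 0.31; limma adjusted p = 0.927, DESeq2 adjusted p = 1.7e-08). Avil, the gene of the Cre promoter and a marker of sensory neurons, held 15684, 17149 and 11996 in the WT libraries against 10125, 9369 and 8201 in the knockout libraries. Its groups did not overlap (log2 fold change -0.68, SE 0.21, limma adjusted p = 0.927), and its part in the Hox values was not tested. It was present in every library. All 15 listed sensory neuron markers were tested, and the list as a whole did not go 1 way: 7 were higher and 8 lower. Their median on the log2 scale was -0.009, and limma called 0 of them. Avil was the only 1 that was lower without overlap. Higher without overlap were 3 others, Ret (0.63), Ntrk3 (0.48) and Isl1 (0.37). Markers of other cells moved with the groups or with single libraries. All 17 tested skeletal muscle markers were lower in Hdac2 cKO: their sums were 13997, 5865 and 4831 in the WT libraries and 586.0, 1896 and 480.5 in the knockout libraries. Of the 10 myelinating Schwann cell markers 8 were lower, with sums of 237772 to 361871 in WT and 138952 to 223307 in Hdac2 cKO. The 9 satellite glia markers summed to 359531 in WT 3 and to 116013 to 167217 in the other libraries. In whole ganglia, fewer cells of a type and less RNA per cell cannot be told apart. WT 3 stood apart in the Hox genes too, and Hox values that it turns or moves most are also given without it.

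Most of the summed Hox signal lay in the middle paralog groups. Levels of different genes are compared here as normalised reads per kb of exon. Summed over members, paralog groups 5 to 8 held 48.4% of the Hox signal as a mean over the 6 libraries, groups 9 to 10 35.3%, groups 1 to 4 15.9% and groups 11 to 13 0.465%. These sums run over 11, 7, 12 and 9 members in that order, so a share also reflects how many members a group has. The largest single shares were those of group 9, at 23.6% from 4 members, and group 8, at 16.8% from 3. Group 7 held 12.9% from 2 members. Hoxd1 was high for its low paralog number, with a mean of 375.3 reads per kb against 2.504 for its paralog Hoxb1. By cluster, the mean shares were 28.2% for A, 29.0% for B, 17.0% for C and 25.8% for D. Over the 5 libraries other than WT 3 they were 29.9%, 26.6%, 18.2% and 25.3%, so that the place of B above A came from WT 3; A was above B in each of those 5. The paralog shares without WT 3 were 46.6% for groups 5 to 8, 36.4% for 9 to 10, 16.6% for 1 to 4 and 0.319% for 11 to 13.

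**Figure D1:**
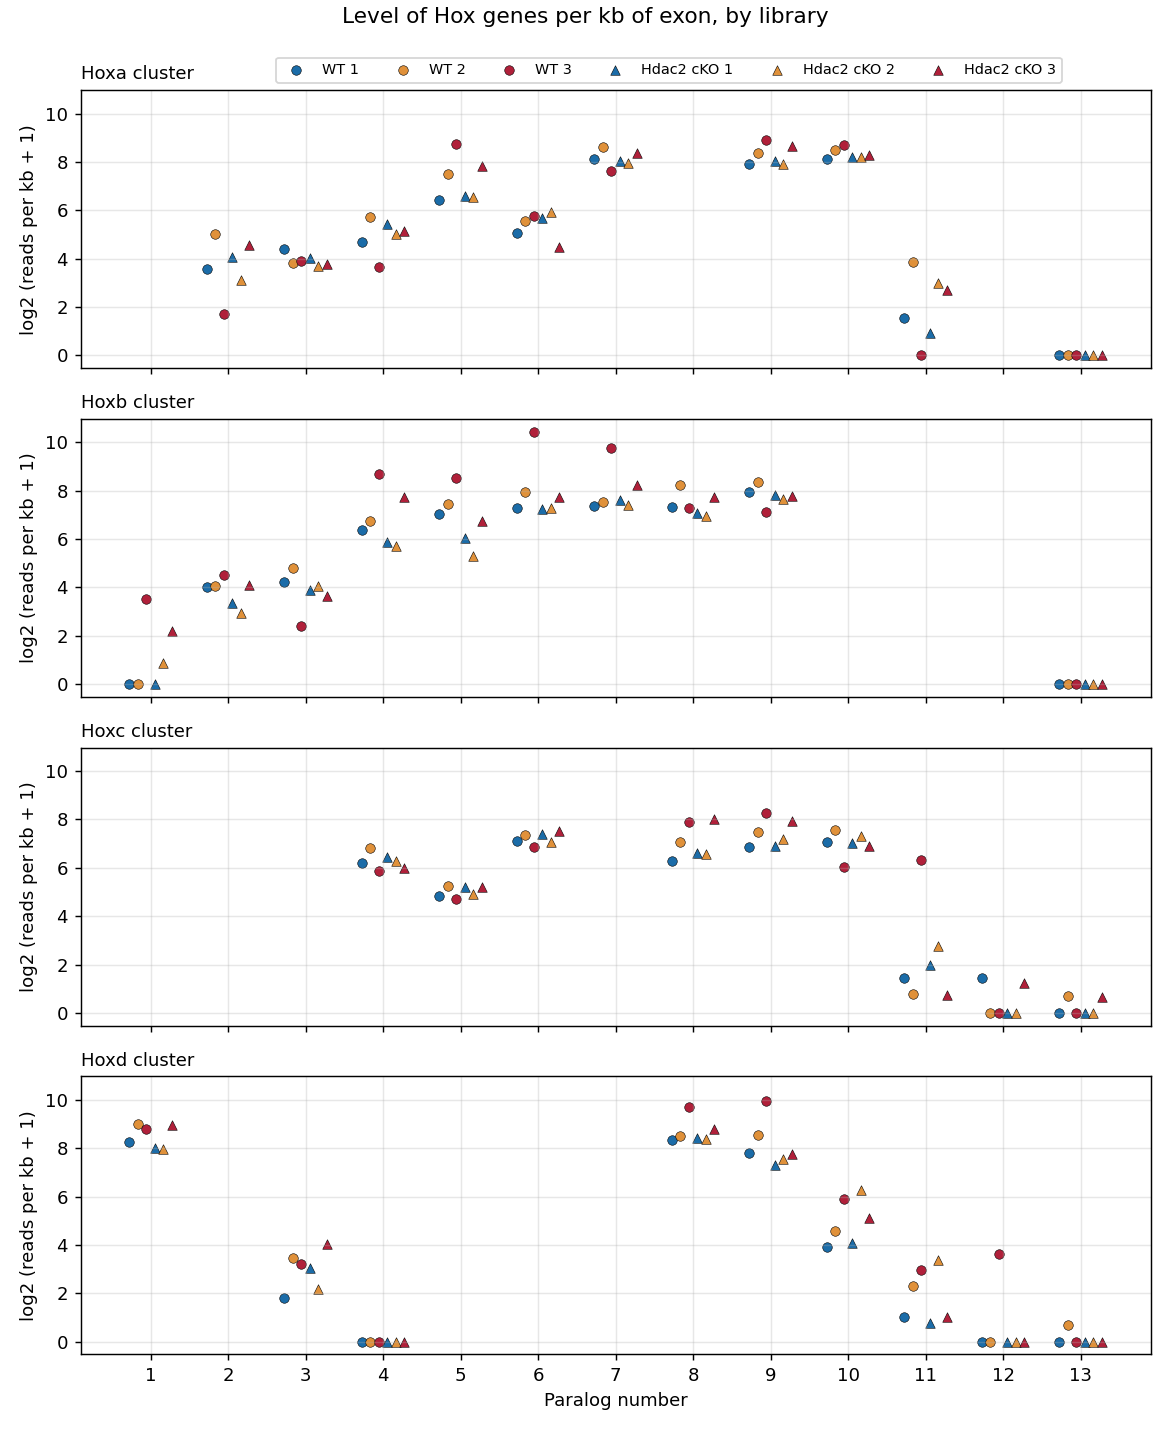
Level of the Hox genes shown singly in each library, as log2 of normalised reads per kb of exon plus 1 (y axis), against paralog number (x axis), with 1 panel per cluster. Circles are WT and triangles Hdac2 cKO, and colours mark the replicate number. Paralogs 5 to 10 were high in all clusters that have them except Hoxc5, Hoxa6 and Hoxd10, Hoxd1 was high, and paralogs 11 to 13 were low apart from Hoxc11 in WT 3.

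The highest mean level per kb over the 6 libraries was that of Hoxd8, at 437.8, followed by Hoxb6 (384.0), Hoxd1 (375.3), Hoxd9 (356.8), Hoxa9 (326.0), Hoxa10 (325.9) and Hoxb7 (314.5). The order is not firm: of the 35 pairs of neighbours in the order of the 36 members with a read, 0 had ranges over the 6 libraries that did not overlap. Hoxb6 came next to Hoxd8 through WT 3, where it stood at 1392 reads per kb against 149.7 to 243.4 in the other libraries. Over those 5 the highest means were 361.9 for Hoxd1, 357.2 for Hoxd8, 307.5 for Hoxa10, 301.8 for Hoxa7 and 296.4 for Hoxa9, while Hoxd9 had 231.5, Hoxb7 201.8 and Hoxb6 182.5. At the other end, Hoxa13, Hoxb13 and Hoxd4 had no read in any library, where 3 reads, the limit that a count of 0 allows, would be 2.10 to 4.47 normalised counts. Hoxd13, a digit and genital patterning gene, had 1 read in all, Hoxc13 had 3 and Hoxc12 had 4. Hoxd4 shares 52.3% of its exon bases with other genes, among them Hoxd3 and the read-through gene Gm28230, and no source used here gives how shared bases were counted, so its 0 does not show that it is silent. The same holds in part for Hoxd3 (62.8% shared) and Hoxb3 (52.9%).

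The D cluster spans chr2:74668310-74765142 (96.8 kb; mm10) and holds members at both ends of the range of levels. Promoter windows are shown for Hoxd13, at 1 read in all, and for Hoxd9, Hoxd8 and Hoxd1, the cluster's 3 highest members, so that the start regions of a nearly unread gene and of 3 well-read ones can be set side by side. They are RefSeq windows of assembly GRCm38.p6, plus strand, trimmed so that they end before the GENCODE gene start, and CpG dinucleotides are in capitals. The windows lie at chr2:74667975-74668224 for Hoxd13, chr2:74697513-74697726 for Hoxd9, chr2:74704365-74704614 for Hoxd8 and chr2:74762730-74762979 for Hoxd1.
Hoxd13: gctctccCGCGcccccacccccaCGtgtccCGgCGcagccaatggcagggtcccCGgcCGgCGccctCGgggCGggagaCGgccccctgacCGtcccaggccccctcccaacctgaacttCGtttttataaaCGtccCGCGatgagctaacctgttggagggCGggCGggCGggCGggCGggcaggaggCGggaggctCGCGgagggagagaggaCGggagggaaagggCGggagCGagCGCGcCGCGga
Hoxd9: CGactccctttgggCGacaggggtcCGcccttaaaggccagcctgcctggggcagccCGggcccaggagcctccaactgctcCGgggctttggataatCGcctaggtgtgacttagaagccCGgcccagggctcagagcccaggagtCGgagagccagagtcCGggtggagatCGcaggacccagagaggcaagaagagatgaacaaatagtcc
Hoxd8: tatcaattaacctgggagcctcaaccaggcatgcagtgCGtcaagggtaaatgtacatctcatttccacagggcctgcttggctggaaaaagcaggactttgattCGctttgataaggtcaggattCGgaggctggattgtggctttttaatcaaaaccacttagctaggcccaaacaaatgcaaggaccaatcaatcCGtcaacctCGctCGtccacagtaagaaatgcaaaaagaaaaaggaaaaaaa
Hoxd1: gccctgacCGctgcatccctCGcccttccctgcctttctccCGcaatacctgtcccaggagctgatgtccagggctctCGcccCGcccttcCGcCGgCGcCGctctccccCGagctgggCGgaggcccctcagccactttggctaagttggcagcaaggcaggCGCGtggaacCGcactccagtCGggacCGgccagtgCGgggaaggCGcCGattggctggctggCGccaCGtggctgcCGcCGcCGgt
The number of CpGs was 31 in the Hoxd13 window, 10 in Hoxd9, 6 in Hoxd8 and 24 in Hoxd1. The count thus did not order these genes by level: Hoxd8, the highest of them over the 6 libraries, had the fewest CpGs and Hoxd13, at 1 read, the most. Of the 39 members 22 had a window, 24 windows in all, with a median of 12.5 CpGs against 6.0 in all 32851 mouse windows of the table. TAATTA, a homeodomain core that reads the same on both strands, was found in the windows of 1 of the 22 members (4.55%), Hoxd11, and in 4.84% of all windows. TGATTNAT, a motif of Hox and Pbx proteins searched on both strands, was found in those of 2 members (9.09%), Hoxa2 and Hoxd11, and in 2.82% of all windows. The Hoxd11 match of TGATTNAT lay in a window inside the annotated gene. The units are unlike, as the Hox shares count members, some with more than 1 window, and the others count windows. CpGs were marked after these motifs had been looked for.

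Against this map, no Hox gene passed the test of Hdac2 cKO against WT over all genes. Of the 39 members, 30 reached 10 normalised counts in at least 3 libraries and were tested by limma on log2 (value + 1), which understates changes of low genes. Limma called 0 of the 30 at a Benjamini-Hochberg adjusted p of 0.05, and 0.0% of all 18410 genes tested; at an unadjusted p under 0.05 there were 2 Hox genes (6.67%), against 1.85% of all genes. On recovered reads, DESeq2 called 0 Hox genes and 0.152% of all genes, and edgeR and limma-voom called 0 genes of any kind. The smallest limma adjusted p of any member was 0.927.

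By direction, 20 of the 30 tested members were lower in Hdac2 cKO (66.7%), against 44.7% of all genes tested, and the median log2 fold change (Hdac2 cKO minus WT) was -0.18 against 0.06 over all genes. With a gene length correction 16 of 30 were lower. The B cluster had 7 of 8 tested members lower, with a median of -0.63. The D cluster had 4 of 6 lower with a median of -0.36, the A cluster 6 of 10 with -0.13, and the C cluster 3 of 6 with 0.09. By paralog number, groups 5 to 8 had 8 of 11 lower and a median of -0.33, groups 9 to 10 had 5 of 7 and -0.18, and groups 1 to 4 had 6 of 10 and -0.14. Several of these rest on WT 3. With WT 3 left out, 18 of 30 members were lower with a median of -0.15. B then had 7 of 8 lower with -0.47, A 6 of 10 with -0.16, C 2 of 6 with 0.090 and D 3 of 6 with 0.037. Groups 5 to 8 had 4 of 11 lower and a median of 0.075, groups 9 to 10 had 4 of 7 and -0.090, and groups 1 to 4 had 8 of 10 and -0.31. The 44.7% and 0.06 over all genes are for all 6 libraries without the length correction. They do not match the counts with WT 3 left out or with that correction. These are counts without a test, and differences between clusters were not tested. The libraries did not overlap between groups for 2 members, Hoxb5 and Hoxd9 (6.67%), both lower in Hdac2 cKO. Among all genes 8.54% did not overlap, in either direction, and 3.91% did not overlap and were lower, so that 2 of 30 lies near the share over all genes.

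**Figure D2:**
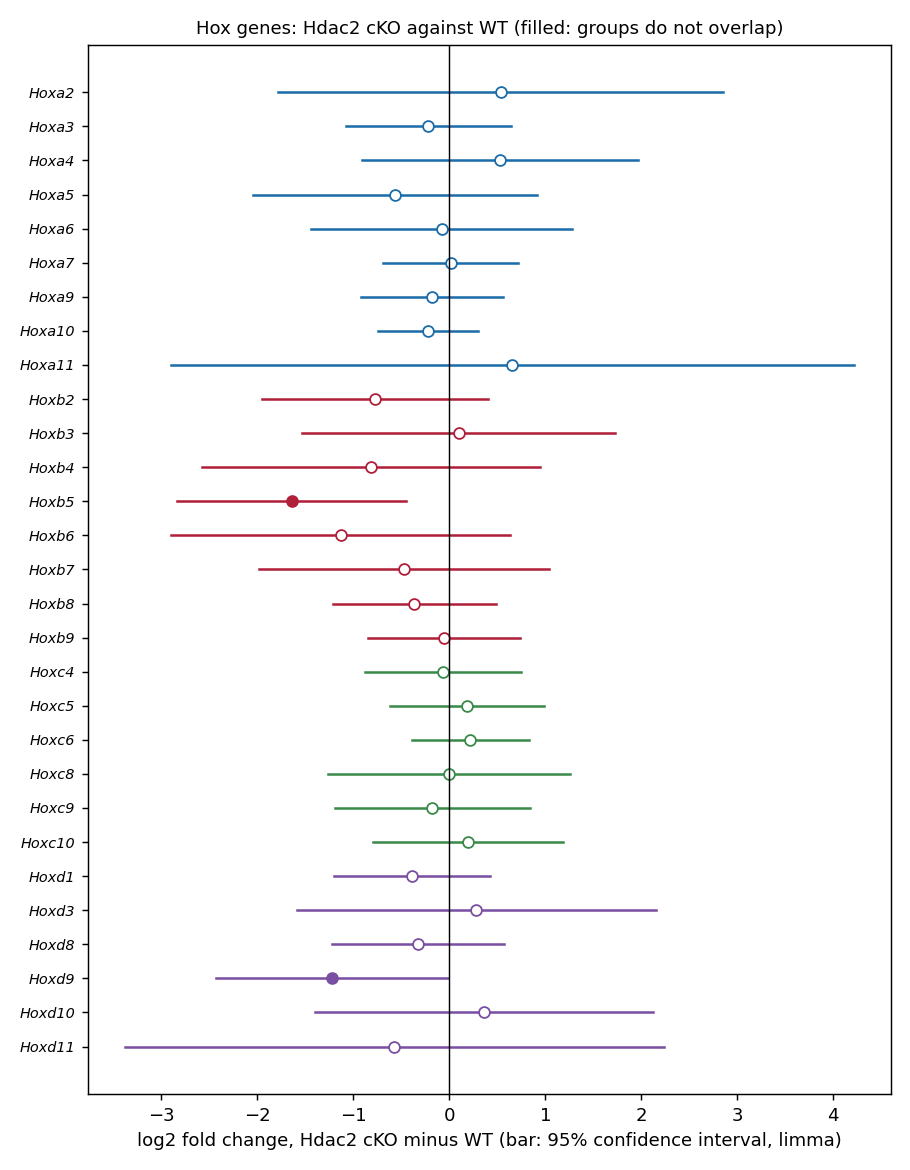
Log2 fold change of the tested Hox genes shown singly (x axis, Hdac2 cKO minus WT, log2 of value + 1) with its 95% confidence interval from limma, by gene (y axis) and coloured by cluster. Filled points are the genes whose groups do not overlap, Hoxb5 at -1.64 and Hoxd9 at -1.22, and all other intervals cross 0.

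Hoxb5 (ENSMUSG00000038700, chr11:96303336-96306121, plus strand), a group 5 gene with a known role in neural crest derivatives, had the most negative fold change of the members. The WT libraries held 358.2, 478.0 and 1018 normalised counts and the knockout libraries 180.9, 106.1 and 294.4. Every knockout library lay below every WT library. The means were 618 ± 351 and 194 ± 94.8 (SD, n = 3 each). The log2 fold change was -1.64 (SE 0.51, 95% confidence interval -2.83 to -0.45), and limma's adjusted p over all genes was 0.927. The exact two-sided permutation test cannot go below p = 0.1 with 3 against 3. Leaving out WT 3 gave -1.21, and leaving out both libraries numbered 3 gave -1.57. DESeq2 gave an adjusted p of 0.462, and with the replicate number as a block DESeq2 called Hoxb5 lower (-1.67, adjusted p = 0.00133), the 1 Hox gene among the 0.429% of genes called there. That call rests on a pairing read from these data and not from the labels.

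Hoxb5os (ENSMUSG00000085645), the non-coding gene on the opposite strand, held 37.1, 50.6 and 80.7 in the WT libraries against 16.2, 15.7 and 9.79 in the knockout libraries. Its groups did not overlap either, with a log2 fold change of -1.90 (SE 0.59, limma adjusted p = 0.927). It shares 100 exon bases with Hoxb5. No source used here states whether the counting used strand. Reads of the shared bases thus cannot be told apart, and the genes are not separate measurements there. Hoxb5 also moved with the markers above: the 3 knockout libraries were low in both Hoxb5 and the muscle sums. Within each group the order was the reverse, the library with more Hoxb5 having the lower muscle sum. The part of cell makeup in its difference was not tested.

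Hoxd9 (ENSMUSG00000043342, chr2:74697727-74700208, plus strand), a group 9 gene that acts in lumbar motor neuron and hindlimb patterning, was the other member without overlap. It held 467.7, 805.5 and 2100 in the WT libraries against 336.4, 403.0 and 460.2 in the knockout libraries. The gap was small: Hdac2 cKO 3 lay just below WT 1. The means were 1125 ± 862 and 399.9 ± 61.9 (SD, n = 3 each), so that most of the WT spread came from WT 3. The log2 fold change was -1.22 (SE 0.52, 95% confidence interval -2.43 to -0.01; limma adjusted p = 0.927). It was -0.63 without WT 3 and -0.74 without both libraries numbered 3, so that the size rests in good part on WT 3. DESeq2 gave an adjusted p of 0.748.

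Hoxb6, the neighbour of Hoxb5 with the next most negative fold change after Hoxd9, was far higher in WT 3 than in any other library. It held 300.9, 478.0 and 2733 in the WT libraries against 294.0, 302.7 and 416.8 in the knockout libraries. WT 1 lay among the knockout libraries. Its fold change on the log2 scale was -1.13 (SE 0.75, limma adjusted p = 0.927), and without WT 3 it was -0.18. Hoxb7 was alike, at 252.4, 281.4 and 1355 against 299.1, 257.5 and 467.9, with a log2 fold change of -0.47 (SE 0.65) that became 0.31 without WT 3.

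Hoxb8 and Hoxd1 were called by limma only with array weights, the former a gene of caudal spinal and sensory development and the latter a gene that shapes the projections of nociceptors, the pain-sensing neurons. Array weights let libraries that deviate from their group count less: they were 0.670, 4.17 and 0.101 for the WT libraries and 2.42, 3.65 and 0.402 for the knockout libraries, so that the WT mean rested mostly on WT 2, the shallowest library. With them 4 Hox genes were called lower, where 3.08% of all genes were called: Hoxb5 (-1.75, limma adjusted p = 0.0236), Hoxb8 (-1.06, 0.0364), Hoxd1 (-0.88, 0.0451) and Hoxd9 (-1.005, 0.0363). Hoxb8 held 423.5, 801.1 and 403.7 in the WT libraries against 348.6, 327.3 and 563.7 in the knockout libraries. Its groups overlapped through Hdac2 cKO 3, and with equal weights the log2 fold change was -0.36 (SE 0.36). Hoxd1 held 563.8, 960.4 and 823.8 in the WT libraries against 475.9, 458.0 and 911.3 in the knockout libraries. Here too Hdac2 cKO 3 lay among the WT libraries, and the equal-weight log2 fold change was -0.39 (SE 0.35).

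The highest members of the A and C clusters had small fold changes, with intervals that were narrow in A and wide in C. Hoxa9, a group 9 gene, held 1356, 1834 and 2646 in the WT libraries against 1484, 1360 and 2233 in the knockout libraries. The groups interleaved, with the library numbered 3 highest in each, and the log2 fold change was -0.18 (95% confidence interval -0.92 to 0.55). Hoxa10, which suppresses rib formation in the lumbar region, had the lowest spread over the 6 libraries of the members named, at 908.0, 1190 and 1368 against 956.8, 964.2 and 1009. Its log2 fold change was -0.22 (95% confidence interval -0.74 to 0.30), which leaves out a difference of 2-fold in either direction. Hoxc8, known from the brachial spinal cord, stood at 218.8, 373.7 and 671.5 against 277.8, 268.3 and 735.8, and Hoxc9, known from thoracic motor neurons, at 276.2, 428.8 and 737.9 against 291.0, 347.9 and 598.0. Both were lowest in WT 1 and high in the libraries numbered 3. Their log2 fold changes were -0.00060 (95% confidence interval -1.26 to 1.26) and -0.18 (-1.19 to 0.84). Leaving out WT 3 turned them to 0.41 and 0.19, and that of Hoxa9 to 0.067. Hoxd8 stood at 873.5, 990.2 and 2307 against 924.5, 914.1 and 1199, with a log2 fold change of -0.33 (SE 0.38) that became 0.11 without WT 3.

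The 3 most positive fold changes belonged to low A cluster genes. Hoxa11, a gene of limb patterning, held 4.41, 31.3 and 0 in the WT libraries against 2.02, 15.7 and 12.6 in the knockout libraries. It had 62 reads in all, its log2 fold change was 0.66 (95% confidence interval -2.90 to 4.22), and the sign turned to -0.58 without WT 3. Hoxa2, a gene of the hindbrain and second branchial arch, stood at 19.4, 55.1 and 4.09 against 28.3, 13.8 and 39.9, a log2 fold change of 0.53 (SE 0.99) that turned to -0.38 without WT 3. Hoxa4 stood at 39.7, 81.9 and 18.4 against 67.7, 50.1 and 55.3, a log2 fold change of 0.53 (SE 0.61) that was 0.0038 without WT 3. Each of these was lowest in WT 3 of all libraries and highest in WT 2.

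WT 3 stood furthest from the other libraries. The SD over tested Hox genes of the deviation from the gene mean was 1.23 on the log2 scale in WT 3 and 0.45 to 0.71 in the others, and over all genes 1.36 against 0.58 to 0.69. Summed over the 39 members, the Hox level was 3374, 4908 and 8212 reads per kb in the WT libraries and 3313, 3261 and 4773 in the knockout libraries. The B cluster alone reached 3369 in WT 3 against 759.5 to 1374 elsewhere, which was 41.0% of the Hox signal there and 23.3% to 28.8% in the other libraries. WT 3 was at least 2-fold above the median of the other 5 libraries for 11 of 30 tested members (36.7%), against 18.0% of all genes: Hoxa5, Hoxb4, Hoxb5, Hoxb6, Hoxb7, Hoxc8, Hoxc9, Hoxd8, Hoxd9, Hoxd10 and Hoxd11. It was at most 0.5 of that median for 5 members (16.7%), against 23.7% of all genes: Hoxa2, Hoxa4, Hoxa11, Hoxb3 and Hoxc10. Both directions occurred within the A, B and C clusters, and neighbours such as Hoxb3 and Hoxb4 differed: Hoxb3 was at 18.4 in WT 3 and 49.7 to 113.2 elsewhere, Hoxb4 at 1044 and 132.7 to 548.3.

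**Figure D3:**
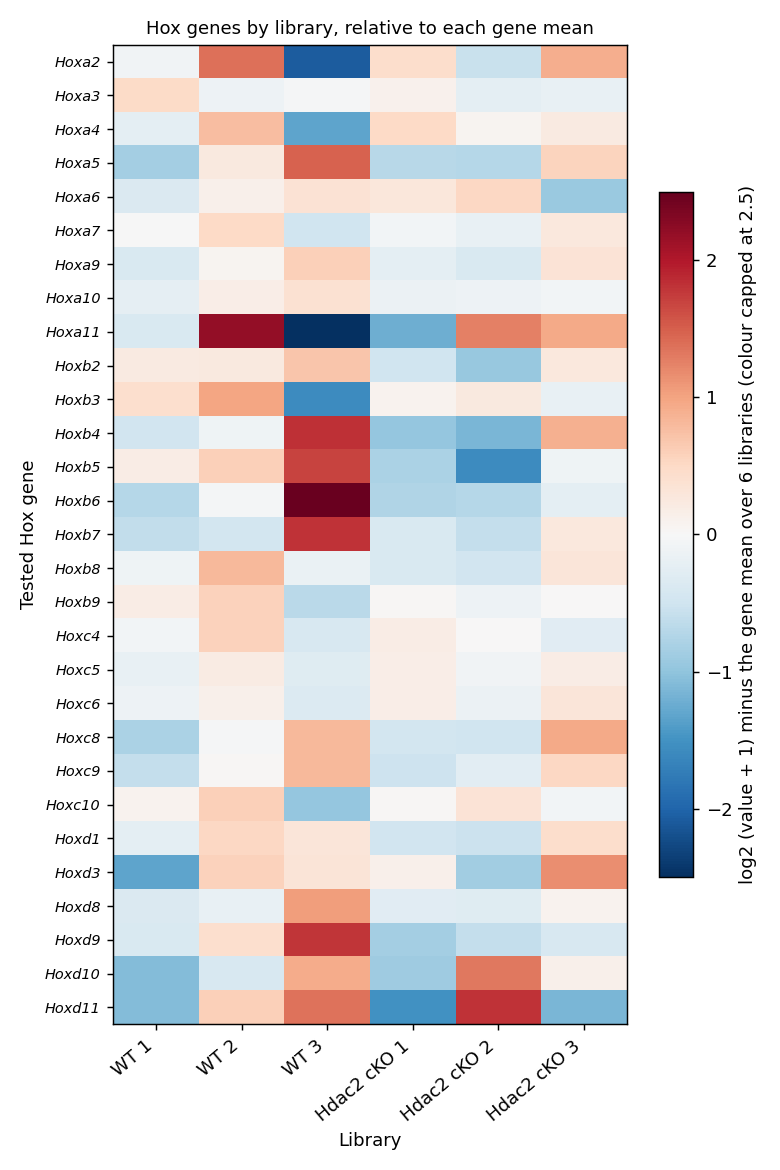
Tested Hox genes shown singly (y axis) by library (x axis), with colour showing log2 (value + 1) minus the gene's mean over the 6 libraries, capped at 2.5. WT 3 holds the darkest cell in each direction, red for Hoxb6 and blue for Hoxa11. It is also red for Hoxb4, Hoxb5, Hoxb7 and Hoxd9 and blue for Hoxa2 and Hoxb3. Some cells of other libraries are as dark as these, such as Hoxa11 in WT 2, and Hdac2 cKO 3 is red for Hoxb4.

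Hdac2 cKO 3 shared some of the high values. Within each group the library numbered 3 was the highest for 12 of 30 members (40%), against 24.6% of all genes: Hoxa5, Hoxa9, Hoxa10, Hoxb2, Hoxb4, Hoxb5, Hoxb6, Hoxb7, Hoxc8, Hoxc9, Hoxd8 and Hoxd9. Hoxb4, a gene of the hindbrain and neck region, held 211.8, 272.5 and 1044 in the WT libraries against 149.5, 132.7 and 548.3 in the knockout libraries. Hoxa5 stood at 158.8, 339.5 and 798.2 against 177.8, 174.9 and 425.2. In Hoxb4 the groups overlapped only through Hdac2 cKO 3, which lay above WT 1 and WT 2. In Hoxa5 WT 1 was the lowest library of all, and WT 3 the highest. The log2 fold changes were -0.82 (SE 0.75) for Hoxb4 and -0.57 (SE 0.63) for Hoxa5. With WT 3 left out they were -0.11 (SE 0.61) and 0.026 (SE 0.50). Between libraries of the same number, Hoxb4 was lower in Hdac2 cKO in all 3 pairs, and with the replicate block limma gave it an adjusted p of 0.674. In all, 6 of 30 members were lower in all 3 pairs (20%), against 14.6% of all genes: Hoxa3, Hoxb2, Hoxb4, Hoxb5, Hoxb6 and Hoxd9. Relative to each gene's mean, the median over tested Hox genes was -0.25, 0.31 and 0.36 on the log2 scale in the WT libraries and -0.26, -0.27 and 0.20 in the knockout libraries, while that over all genes lay between -0.09 and 0.05. By this median Hox genes sat high in WT 2, WT 3 and Hdac2 cKO 3 and low in the others, across the groups. Above their gene mean were 23, 18 and 19 of 30 members in those 3 libraries and 7 to 12 in the others. WT 3 was split, with 10 of the 30 at their lowest value there and 11 at their highest. Erythroid marker sums ran the other way, at 7113, 2758 and 1340 in WT 2, WT 3 and Hdac2 cKO 3 and at 51225 to 77527 in the other 3 libraries. Macrophage marker sums did so too, at 5189, 3022 and 3512 against 10125 to 11691. The part of these cells in the Hox levels was not tested.

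**Figure D4:**
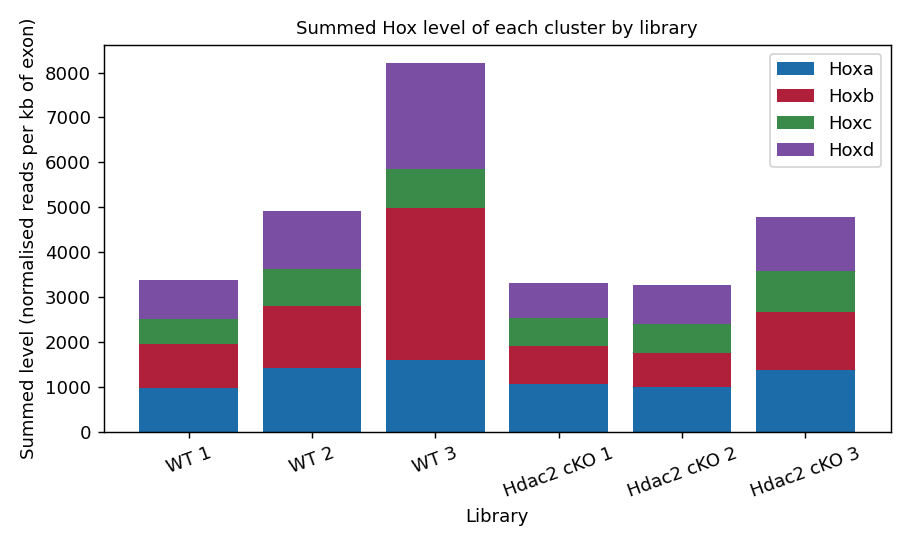
Summed level of the members of each Hox cluster, in normalised reads per kb of exon (y axis), stacked for each library (x axis). WT 3 reaches 8212, with the B cluster as its largest part, and the other libraries lie between 3261 and 4908.

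Of the members too low to test, some had reads in WT 3 and few elsewhere. Hoxc11 stood at 161.5 normalised counts in WT 3 and at 1.399 to 11.8 in the other libraries. Hoxd12 stood at 28.6 in WT 3 and at 0 in the other 5. Hoxb1, a hindbrain gene, stood at 24.5 in WT 3, 8.39 in Hdac2 cKO 3, 1.97 in Hdac2 cKO 2 and 0 in the others. Hotair, the non-coding RNA made beside Hoxc11, stood at 28.6 in WT 3 and at 1.97 or 0 elsewhere. The listed spinal cord markers summed to 10150 in WT 3 and to 2799 to 4272 elsewhere, but most of that was Tlx3, a gene that sensory neurons also use. Without Tlx3, a choice made after its value was seen, the other 14 summed to 631.6 in WT 3 and to 355.9 to 528.4 elsewhere. Of these, 3 markers picked after their values stood out were high in WT 3 alone. Lhx1, a spinal interneuron gene, read 141.0 there and at most 7.86 elsewhere, Chat, a motor neuron gene, 85.9 and at most 1.97, and Opalin, an oligodendrocyte gene, 28.6 and 0. Mog and Olig1 were also highest in WT 3, at 19.4 and 14.3. Other markers were not: Slc32a1, Slc6a5, Mnx1, Lhx5 and Olig2 read 0 in WT 3 and at most 7.06 elsewhere. Aqp4 was at its lowest in WT 3, at 155.4 against 189.1 to 392.0, and Mobp, Lmx1b and Pax2 were at neither end there. The part of the listed spinal cord markers in the WT 3 values of the Hox genes was not tested. WT 3 was also apart outside the clusters: over the 24 tested coding genes nearest to them, its ratio to the median of the other libraries ran from 0.167 for Atp5g2 to 3.98 for Atp5g3, both subunit c genes of the mitochondrial ATP synthase.

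With fewer libraries, lack of overlap is easier to reach, for all genes as for Hox genes. Without WT 3, 4 of 30 members did not overlap (13.3%), against 18.8% of all genes: Hoxb3, Hoxb5, Hoxb9 and Hoxd9. Without both libraries numbered 3 there were 10 of 30 (33.3%), against 38.6% of all genes. Hoxb5 and Hoxd9 were among them each time. That outcome was fixed, since groups that do not overlap stay apart when libraries are left out.

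Genes that work with or upstream of the Hox genes were read from lists, and limma called 0 of their members over all genes tested, as did DESeq2. At an unadjusted limma p under 0.05 there were 2. Egr2 was 1 of 7 tested caudal and axial regulators, and Hoxb5os 1 of 8 tested non-coding genes. In the other lists it was 0 of 9, 29, 14 and 19 tested genes, where the share of all genes was 1.85%. Lack of overlap went both ways: 1 lower TALE cofactor, 2 higher Polycomb genes, 1 higher Trithorax gene or demethylase and 0 retinoic acid genes. There were also 1 higher and 1 lower caudal and axial regulator and 2 lower tested non-coding genes. Among all genes 8.54% did not overlap. Of 9 TALE cofactors, the Pbx, Meis and Pknox proteins that bind DNA beside Hox proteins, 5 were higher and 4 lower, and their log2 fold changes had a median of 0.11. Pbx4 stood at 129.7, 141.5 and 69.5 against 162.7, 126.8 and 337.1, and Meis1 at 185.3, 141.5 and 170.7 against 140.4, 116.0 and 107.7, the latter without overlap and at -0.45 (SE 0.31). Of 29 Polycomb genes 14 were higher and 15 lower, with a median of -0.01. Pcgf5, a variant Polycomb repressive complex subunit, had the smallest p of these, at 301.8, 233.8 and 221.8 against 312.2, 311.6 and 430.1, higher and without overlap. Of 14 Trithorax genes and demethylases of the Polycomb mark 8 were higher and 6 lower, with a median of 0.07. Ash1l, a histone methyltransferase, had a log2 fold change of 0.54 (SE 0.33).

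Of 19 genes of retinoic acid, the signal that switches on Hox genes in the embryo, 6 were higher and 13 lower, with a median of -0.14. The receptor Rara stood at 359.1, 364.8 and 514.1 against 367.8, 310.6 and 190.9. Of 7 tested caudal and axial regulators 5 were higher and 2 lower, with a median of 0.11. Zbtb16, a zinc finger gene that acts on Hox genes in the limb, stood at 125.3, 187.6 and 17.4 against 225.3, 489.5 and 208.4, without overlap. Its log2 fold change was 1.91 (SE 0.87). Egr2, which drives Hox genes in the hindbrain and is also the master gene of myelinating Schwann cells, stood at 968.0, 1334 and 1602 against 771.9, 952.4 and 766.5, lower and without overlap. Egr2 is also on the list of Schwann cell markers, of which 8 of 10 were lower.

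Of 8 tested non-coding genes of the clusters, 7 were lower in Hdac2 cKO and 1 was higher, with a median of -0.68. The count and median are not given without WT 3. Of the WT libraries, WT 3 was the highest for Hoxb3os, Hoxb5os, Haglr, Hoxaas2, Hoxd3os1 and Mir196a-1, and not for Hotairm1 and Hoxaas3. Besides Hoxb5os, which array weights called lower (-1.61, limma adjusted p = 0.0455), Hoxb3os did not overlap, at 31.8, 53.6 and 68.5 against 26.3, 28.5 and 29.4, a log2 fold change of -0.78 (SE 0.51). It shares 2250 exon bases with Hoxb3 and 953 with Hoxb2 on the opposite strand, so its reads cannot be told apart from theirs there. Haglr, beside Hoxd1, stood at 191.5, 314.2 and 895.3 against 167.7, 155.3 and 517.6, again highest in the libraries numbered 3 of each group. Mir196a-1, between Hoxb13 and Hoxb9, was the 1 miRNA gene of the clusters that could be tested, at 29.1, 20.8 and 57.2 against 20.2, 19.7 and 24.5; such reads come from longer transcripts as well as from precursors, and say nothing of the mature miRNA.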

How the data were processed

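Bulk RNA-seq libraries of dorsal root ganglia, 3 WT and 3 Hdac2 cKO, were grouped by their sample titles, and the table's 6 columns were matched to samples by name. Per the submitters' processing notes, the tools were HISAT2, SAMtools, featureCounts and DESeq2 and the build mm10; no source used here gives versions, annotation, strand setting or how shared bases were counted. The signal values the authors deposited were read counts of genes, each library divided by its own factor. Division by each column's step turned 100% of values into whole reads (tolerance 0.01). A separate check of such steps did not pass Hdac2 cKO 1, whose step is close to 1, so the count-based alternatives rest for that library on this division alone. DESeq2 size factors recomputed from the reads equalled the deposited ones within 5.6e-10. Among genes with 1 to 20 reads, even counts made up 42.4% in WT 2 and 60.2% to 64.4% in the other libraries; the cause was not tested.

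Of the identifiers, 54495 matched GENCODE M21, built on GRCm38 (mm10), the source of symbols, coordinates and exon lengths. Promoter windows came from RefSeq; protein sequences were not used here. Genes with a value of 10 or more in 3 or more libraries were tested with limma 3.58.1 in R 4.3.3 (trend, robust) on log2 (value + 1), two-sided, adjusted by Benjamini-Hochberg over all 18410 genes at a threshold of 0.05. Alternatives were edgeR 4.0.16, DESeq2 1.42.0 on the filtered genes, limma-voom, other pseudocounts, filters and scalings, GC and length corrections, a sex term from Y-linked reads, array weights, the replicate block and leaving out libraries; exon bases that no other gene shares, and counts within same-numbered pairs, were added after seeing the data. Scripts were tested on simulated data.

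The members, gene lists and tests were chosen with earlier results of these data known. Named members were the 2 highest per kb in each cluster, those without overlap between groups, the 3 most positive and 3 most negative fold changes, and any that an alternative tool called; counting array weights as such a tool, which named Hoxb8, was decided after its values were seen. Hoxa5, Hoxb3, Hoxb4 and the untested members described singly lie outside that rule and were picked with their values known. 1 member counts in sums and counts but is not reported singly here. From each pathway list up to 2 genes with the smallest p were named, and further non-coding genes were picked likewise.

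Deviations from the group means correlated by 0.40, 0.15 and 0.42 between libraries with the same number 1, 2 and 3, all above 0.1, so the replicate block was read as a pairing. The main test has no block and the blocked fits are alternatives; the data give this pairing, the labels do not. WT 1 and Hdac2 cKO 2 correlated by 0.34, above the 0.15 of the libraries numbered 2, so the reading as a pairing is not firm. Every pair of libraries differed by a chi-square per gene of 17.5 or more, so no library was counted as deposited again. Depth ranged from 18943595 to 42070531 reads. Limits on 0 counts cover counting error only, while limma's confidence intervals cover the spread among these libraries.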

Additional observations from a re-analysis of the deposited data

How the results depend on the processing

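Limma called 0 genes, and 0 were called under 21 other settings or tools. Exceptions were DESeq2 (28 genes), DESeq2 with the replicate block (79), array weights (567) and leaving out both libraries numbered 3 (5). For Hox genes the exceptions were array weights (4 members) and DESeq2 with the replicate block (1), and for the pathway lists array weights (1 gene, Hoxb5os). Limma with the replicate block, which pairs the libraries, left the median Hox log2 fold change at -0.18 and called 0 members. That median ran from -0.40 (array weights) to -0.08 (sex term), and from -0.39 to -0.12 when 1 library was left out. Members without overlap numbered 4 to 6 when 1 library was left out and 10 without both libraries numbered 3, where fewer samples make overlap rarer. Among all genes the share was 18.8% without WT 3, where 13.3% of the 30 tested Hox members did not overlap. Without both libraries numbered 3 it was 38.6%, against 33.3% of the Hox members. For the other single libraries the share over all genes is not given. With the longest transcript as length, the A cluster held 33.5% and the D cluster 22.8% of the signal.

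Turned signs were as follows, and the cause was not tested. Without WT 3, log2 fold changes became -0.58 for Hoxa11, -0.38 for Hoxa2, 0.026 for Hoxa5, 0.067 for Hoxa9, 0.31 for Hoxb7, 0.41 for Hoxc8, 0.19 for Hoxc9 and 0.11 for Hoxd8. At the other end of the values with 1 library left out, they were 1.92 for Hoxa11 and 1.35 for Hoxa2 without WT 2, -0.48 for Hoxc8 without Hdac2 cKO 3, and, without WT 1, -0.42 for Hoxa9, -0.90 for Hoxb7, -0.52 for Hoxc9 and -0.59 for Hoxd8. Without both libraries numbered 3 they were -0.89 for Hoxa11, -0.70 for Hoxa2 and 0.058 for Hoxb7. Array weights gave -1.44 for Hoxa11, -1.20 for Hoxa2 and -0.35 for Hoxa4. Hoxa11 was -0.18 by edgeR under TMM and under RLE and -0.21 by DESeq2. Hoxc8, at about 0, became 0.0011 with scaling by totals, 0.048 by limma-voom, 0.047 with length correction (with or without the replicate block), 0.073 with a sex term, 0.22 without Hdac2 cKO 1 and 0.25 without Hdac2 cKO 2. Hoxc9 was 0.039 without Hdac2 cKO 1. Members with few reads, such as Hoxa11, are limited by depth.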
